A study of Homo sapiens with 54 samples.

Results

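The aryl hydrocarbon receptor (AHR) pathway was followed in the human lung cancer line NCI-H460 (large cell carcinoma, long established in culture) across exposure to cigarette smoke extract, nicotine, ionizing radiation and cisplatin. It was represented by 8 named genes: the receptor AHR, its partner ARNT, the feedback genes TIPARP and AHRR, and the xenobiotic-metabolism genes CYP1A1, CYP1A2, CYP1B1 and ALDH3A1. A gene was taken from rows of the expression table annotated to that symbol and no other, and 7 of the 8 had such a row, 1 row each, among 18417 genes. The row of AHRR is also annotated to PDCD6, so AHRR was not analysed here.

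The 54 arrays formed 18 groups of 3, each hybridised with RNA from 1 culture. All cultures spent the 24 h before the first agent in medium without serum, were of 1 line at 1 passage, and were treated concurrently. The pretreatment was cigarette smoke extract at 5 uM nicotine equivalent, nicotine at 5 uM, or none. The therapy step followed 2 h later and was 6 Gy of radiation from a cesium-137 source, 1 uM cisplatin, or none, and cells were harvested 2 h or 24 h after it. A harvest at 2 h therefore lies 4 h after the smoke extract was added. The labels call the 3 samples of a group biological replicates, and p-values measure the spread between such cultures of 1 line.

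AHR is a ligand-activated transcription factor that rests in the cytosol until a ligand binds it. Polycyclic aromatic hydrocarbons, which tobacco smoke contains, are such ligands, and the bound receptor moves to the nucleus, pairs with ARNT and binds DNA at xenobiotic response elements. Its best known target is CYP1A1, a monooxygenase that oxidizes the hydrocarbons themselves, and TIPARP and AHRR are induced repressors that shut the signal off again.

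RefSeq promoter windows of build GRCh38.p14, each with 250 bases before and 50 bases after an annotated start, were given for 5 of the 7 measured genes (CYP1A1, CYP1A2, TIPARP, AHR and ARNT). They were searched on both strands for GCGTG, the core of the xenobiotic response element, which is also 1 form of the hypoxia response core, and for the longer TNGCGTG, which contains it. The windows below are shown because CYP1A1 and TIPARP gave the largest changes while CYP1A2 is a neighbour that stayed near background and AHR is the receptor itself. Capitals mark GCGTG, or CACGC where the match lies on the opposite strand. They are CYP1A1 at chr15:74725479-74725778 on the minus strand, CYP1A2 at chr15:74748595-74748894 on the plus strand, the first of 3 TIPARP windows at chr3:156674340-156674639 on the plus strand and AHR at chr7:17298402-17298701 on the plus strand.
CYP1A1: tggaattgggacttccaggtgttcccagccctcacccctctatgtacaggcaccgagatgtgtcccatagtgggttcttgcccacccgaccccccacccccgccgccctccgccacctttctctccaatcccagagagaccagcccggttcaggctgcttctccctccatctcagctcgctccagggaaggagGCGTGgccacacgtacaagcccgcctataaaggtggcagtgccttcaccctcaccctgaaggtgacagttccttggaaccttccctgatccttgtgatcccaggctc
TIPARP: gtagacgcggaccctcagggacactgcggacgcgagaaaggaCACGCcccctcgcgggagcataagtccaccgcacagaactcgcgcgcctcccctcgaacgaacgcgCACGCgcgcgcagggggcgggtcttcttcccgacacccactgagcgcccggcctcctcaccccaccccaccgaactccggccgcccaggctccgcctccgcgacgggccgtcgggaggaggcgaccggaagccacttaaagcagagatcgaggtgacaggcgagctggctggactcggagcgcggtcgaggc
CYP1A2: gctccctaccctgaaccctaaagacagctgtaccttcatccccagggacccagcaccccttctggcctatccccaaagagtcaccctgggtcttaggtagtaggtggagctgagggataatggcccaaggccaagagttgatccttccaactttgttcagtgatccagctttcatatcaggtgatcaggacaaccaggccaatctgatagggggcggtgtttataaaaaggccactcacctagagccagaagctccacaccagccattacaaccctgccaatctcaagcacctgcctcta
AHR: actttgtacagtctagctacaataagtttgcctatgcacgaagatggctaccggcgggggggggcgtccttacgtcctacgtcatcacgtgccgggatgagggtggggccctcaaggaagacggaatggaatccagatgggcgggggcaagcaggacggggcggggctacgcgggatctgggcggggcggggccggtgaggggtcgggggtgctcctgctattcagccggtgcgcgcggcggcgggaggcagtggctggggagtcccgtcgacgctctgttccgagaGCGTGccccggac

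CYP1A1 held 1 core, whose first base lies 57 bases before the start, AHR held 1 after its start, the first TIPARP window held 2 on the opposite strand, and CYP1A2, ARNT and the other 2 TIPARP windows held 0. None of these windows held TNGCGTG. Of all 35116 windows of this length, 36.5% held the core, 12.7% held at least 2 and 5.51% held TNGCGTG, so a core is common in such windows. The matches are descriptions of letters in these windows. The best studied elements of CYP1A1 lie farther upstream than its window reaches.

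Expression is given as log2 levels, as deposited, and a difference of 1 is a doubling if the base is 2. Levels were compared between arrays for 1 gene, although the normalization is not given in the sources used. Between genes they are not comparable, except as a rough gauge against background. Pearson correlations between arrays of a group ranged from 0.979 to 0.996 over all 33297 rows, and 0 pairs held identical values. No detection calls were used, so 429 genes of families silent in most tissues (olfactory receptors and keratin-associated proteins) gauged the background, with a 95th percentile of 6.77 and a median of 4.80. Of the epithelial markers, KRT8, KRT18, KRT19 and KRT7 lay above that percentile, while EPCAM at 5.28 and CDH1 at 5.07 did not. Of 5 leukocyte genes measured 0 lay above it, of 9 fibroblast and endothelial genes 3 did (COL1A1, COL3A1 and PDGFRB), and of 6 hepatocyte genes 1 did (APOA1). CYP1A1 without smoke extract averaged 5.29, a level that 31.5% of the silent-family genes reached, and CYP1A2 averaged 6.38, which 8.39% reached. Fold changes of CYP1A1 are therefore at best lower bounds, and CYP1A2 cannot be told apart from background. TIPARP without smoke extract averaged 7.62, which 1.86% of the silent-family genes reached, and the other members lay above all of them.

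Smoke extract raised CYP1A1, TIPARP and CYP1B1 strongly and ALDH3A1 moderately in every therapy setting and at both times. Over all 54 arrays the levels with smoke extract did not overlap those without it for the first 3 genes. CYP1A1 ran from 8.34 to 9.82, with a median of 9.12, on the 18 arrays with smoke extract, against 4.84 to 5.87, with a median of 5.30, on the 36 arrays without it. TIPARP ran from 9.84 to 10.65 with smoke extract and from 7.35 to 7.94 without. CYP1B1 ran from 11.90 to 12.33 with smoke extract and from 9.84 to 10.47 without. In bulk RNA, more transcript per cell and more responding cells cannot be told apart.

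**Figure D1:**
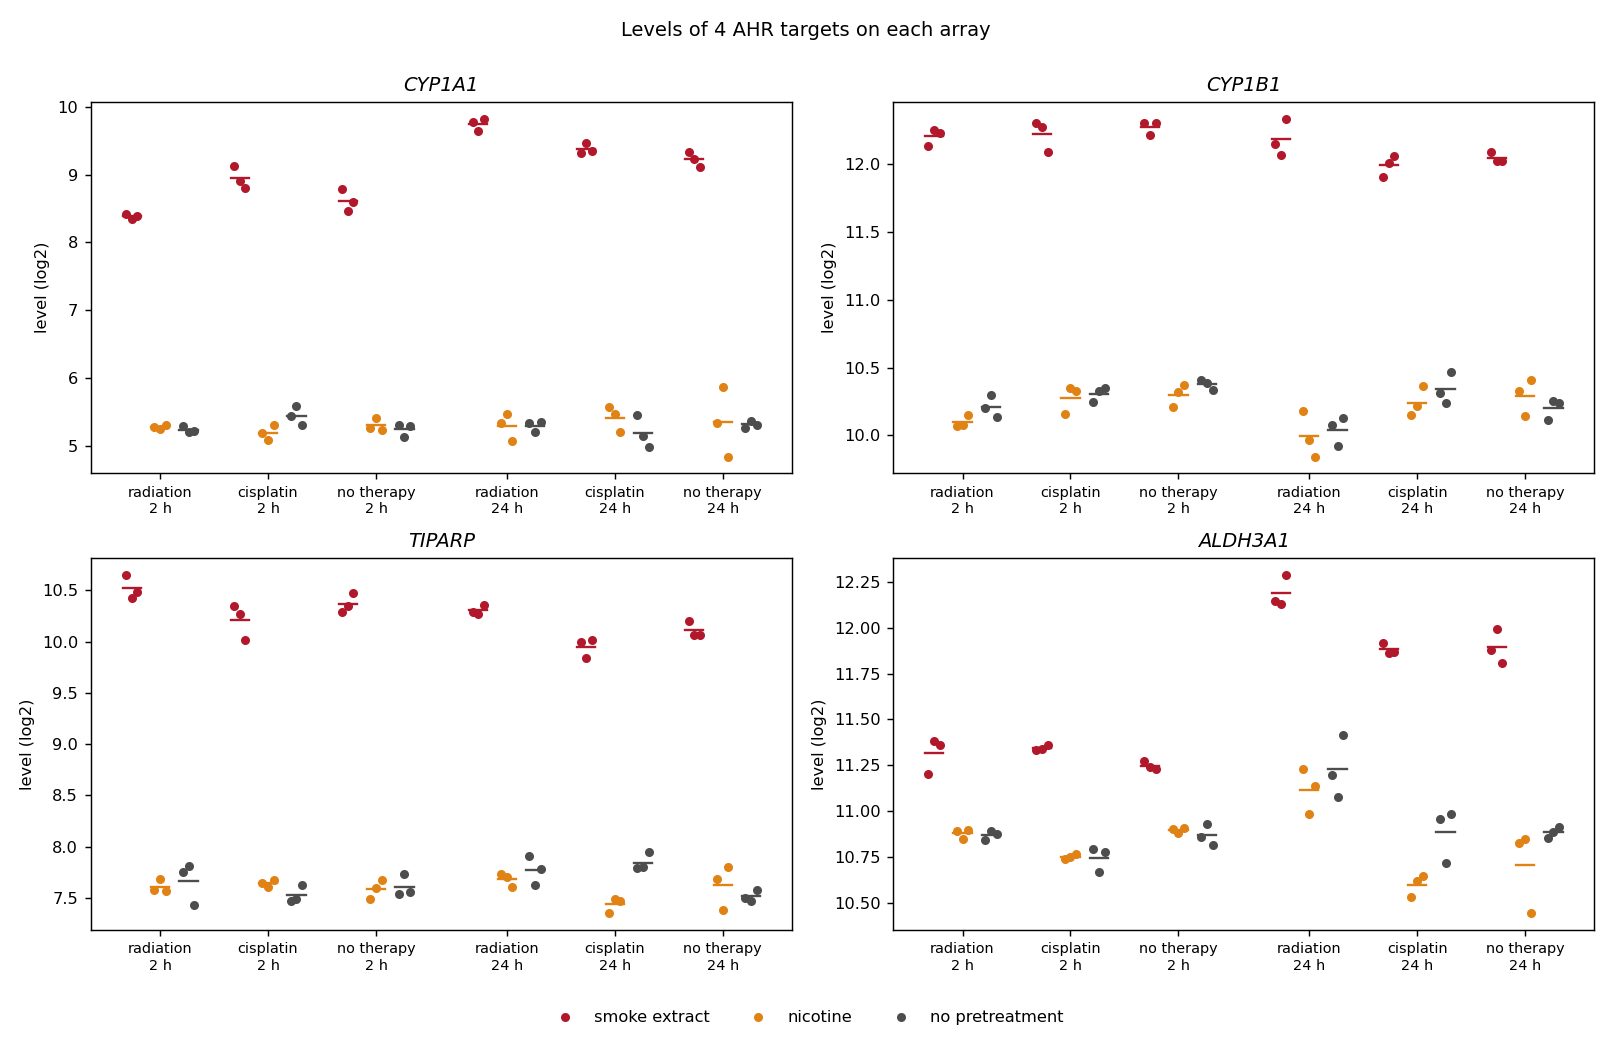
Log2 levels of CYP1A1, CYP1B1, TIPARP and ALDH3A1 on each of 54 arrays, by therapy and harvest time on the horizontal axis. Points are arrays, short lines are means of 3 arrays, and colours give smoke extract, nicotine or no pretreatment. CYP1A1 with smoke extract lies between 8.34 and 9.82, above all arrays without it.

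CYP1A1 was measured at 8.78, 8.47 and 8.59 in cells given smoke extract alone at 2 h, against 5.31, 5.13 and 5.29 in untreated cells. Every smoke extract array stood more than 3 log2 units above every untreated one. The log2 change was 3.37 ± 0.14 (SE, adjusted p = 8.50e-24, limma with Benjamini-Hochberg adjustment over 18417 genes, as for all adjusted p-values here), or 10.3-fold. Of the 7 members, 4 were called higher and 0 lower at an adjusted p under 0.05, where 3.77% of all genes were called, and the median change was 0.38 over the members and -0.02 over all genes. CYP1A1 had the largest rise of all genes tested, TIPARP the 2nd, CYP1B1 the 5th and ALDH3A1 the 257th.

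TIPARP encodes a mono-ADP-ribosyltransferase that modifies AHR and limits its signal. It stood at 10.29, 10.35 and 10.48 with smoke extract alone at 2 h, against 7.54, 7.73 and 7.56 in untreated cells. The change was 2.76 ± 0.09 (SE, adjusted p = 6.83e-27, limma), or 6.78-fold, and the groups were far apart.

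CYP1B1 is the member of the CYP1 family that dominates outside the liver and activates several procarcinogens. It stood at 12.30, 12.21 and 12.31 with smoke extract alone at 2 h, against 10.41, 10.39 and 10.34 in untreated cells. The change was 1.90 ± 0.08 (SE, adjusted p = 1.77e-23, limma), or 3.72-fold.

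ALDH3A1, a dehydrogenase that oxidizes aromatic and medium-chain aldehydes, moved less at this time. It stood at 11.27, 11.24 and 11.23 with smoke extract alone at 2 h, against 10.86, 10.93 and 10.82 in untreated cells. The change was 0.38 ± 0.08 (SE, adjusted p = 0.000773, limma), and the groups did not overlap.

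The receptor and its partner lay slightly lower at this time without passing the test. AHR stood at 9.80, 9.76 and 9.79 with smoke extract alone at 2 h, against 9.99, 10.05 and 9.97 in untreated cells, a change of -0.22 ± 0.08 (SE, adjusted p = 0.141, limma). ARNT stood at 8.91, 8.89 and 8.95 with smoke extract, against 9.11, 9.13 and 9.12 in untreated cells, a change of -0.21 ± 0.09 (SE, adjusted p = 0.27, limma). For both genes the 3 arrays of a group did not overlap those of the other. How many of all genes were separated in this way was not counted, here or in the other comparisons. In a limma fit of just these 2 groups both were called, with adjusted p = 0.00825 for AHR and 0.0358 for ARNT. CYP1A2, the hepatic relative that shares a promoter region with CYP1A1, stood at 6.39, 6.64 and 6.13 with smoke extract and at 6.33, 6.22 and 6.32 in untreated cells, overlapping.

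At 24 h, smoke extract alone gave 4 members a higher level as at 2 h and also called AHR and ARNT higher: 6 of 7 members were called higher, where 16.1% of all genes were called. CYP1A1 stood at 9.34, 9.23 and 9.11 with smoke extract, against 5.26, 5.37 and 5.31 in untreated cells, a change of 3.91 ± 0.14 (SE, adjusted p = 1.54e-26, limma). TIPARP stood at 10.20, 10.07 and 10.07 with smoke extract, against 7.50, 7.47 and 7.58 in untreated cells, a change of 2.60 ± 0.09. CYP1B1 stood at 12.09, 12.03 and 12.03 with smoke extract, against 10.11, 10.25 and 10.24 in untreated cells, a change of 1.85 ± 0.08. None of these 3 genes had overlapping arrays, and they held the 2nd, 5th and 9th largest rises of all genes.

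ALDH3A1 stood at 11.88, 11.99 and 11.81 with smoke extract alone at 24 h, against 10.86, 10.89 and 10.91 in untreated cells. The change was 1.01 ± 0.08 (SE, adjusted p = 5.10e-14, limma), the 40th largest rise of all genes. AHR stood at 10.33, 10.42 and 10.40 with smoke extract, against 9.94, 9.94 and 9.91 in untreated cells, a change of 0.46 ± 0.08 (SE, adjusted p = 4.74e-05, limma). ARNT stood at 9.61, 9.35 and 9.54 with smoke extract, against 9.23, 9.18 and 9.31 in untreated cells, a change of 0.26 ± 0.09 (SE, adjusted p = 0.0346, limma). The arrays of both genes did not overlap between the groups, a separation that was not counted over all genes. The call of ARNT was lost without any 1 of 4 arrays (untreated replicates 1 and 2, smoke extract replicates 1 and 3), with adjusted p-values over all 6 omissions from 0.0118 to 0.19.

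**Figure D2:**
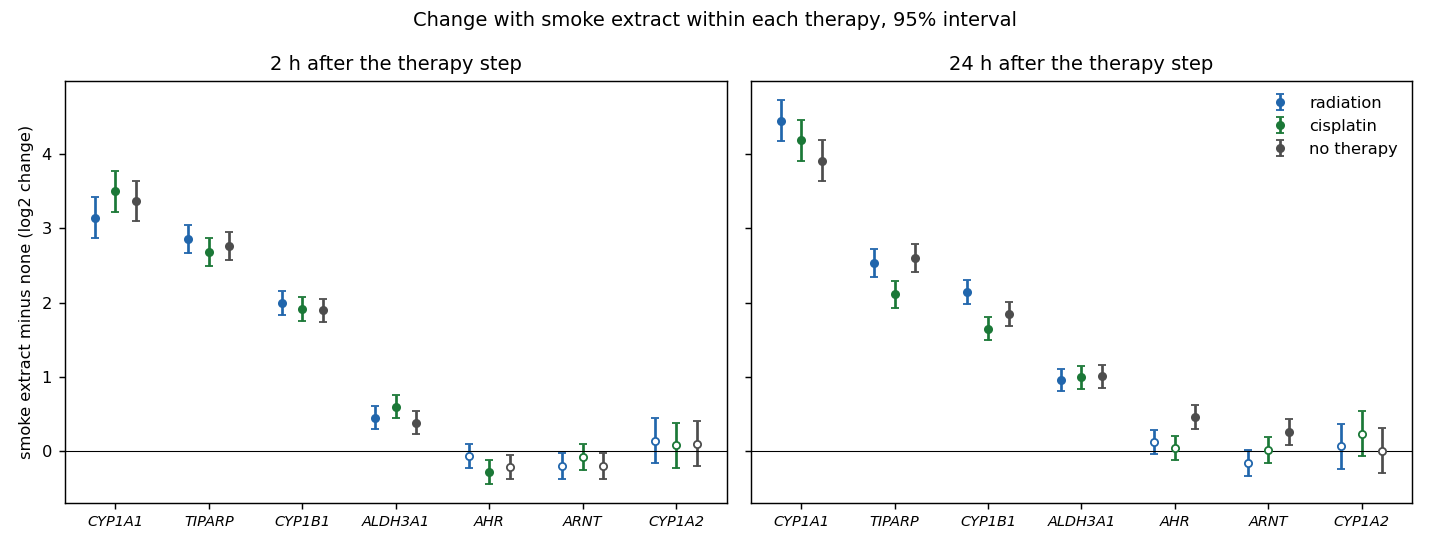
Log2 change of each member with smoke extract against no pretreatment, within radiation, cisplatin and no therapy, at 2 h on the left and 24 h on the right. Points are limma estimates from 3 arrays against 3, bars are 95% intervals, and filled points passed the adjusted p threshold of 0.05. The changes of CYP1A1 lie between 3.15 and 4.45, while those of CYP1A2 include 0 in all 6 settings.

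Irradiated and cisplatin-treated cells gave the same 4 rising members. In irradiated cells at 2 h, 4 of 7 members were called higher with smoke extract and 0 lower, where 2.66% of all genes were called. CYP1A1 stood at 8.42, 8.34 and 8.39 with radiation and smoke extract, against 5.29, 5.20 and 5.22 with radiation, a change of 3.15 ± 0.14. TIPARP changed by 2.86 ± 0.09, CYP1B1 by 1.99 ± 0.08 and ALDH3A1 by 0.45 ± 0.08 (SE, highest adjusted p of the 4 = 6.48e-05, limma). AHR lay at -0.07 ± 0.08 and ARNT at -0.20 ± 0.09, neither called.

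In cisplatin-treated cells at 2 h, 4 members were called higher and 1 lower, where 5.46% of all genes were called. CYP1A1 stood at 9.12, 8.91 and 8.80 with cisplatin and smoke extract, against 5.44, 5.59 and 5.31 with cisplatin, a change of 3.50 ± 0.14. TIPARP changed by 2.69 ± 0.09, CYP1B1 by 1.92 ± 0.08 and ALDH3A1 by 0.60 ± 0.08. The member that fell was AHR, at 9.78, 9.73 and 9.67 with cisplatin and smoke extract, against 9.96, 10.04 and 10.01 with cisplatin, a change of -0.28 ± 0.08 (SE, adjusted p = 0.0241, limma). That call was lost without any 1 of 4 of the 6 arrays (replicates 2 and 3 of either group), with adjusted p-values from 0.0373 to 0.116 over the omissions, and also in a fit of just these 2 groups (0.0641).

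In irradiated cells at 24 h, 4 members were called higher and 0 lower, where 8.23% of all genes were called. CYP1A1 stood at 9.77, 9.64 and 9.82 with radiation and smoke extract, against 5.33, 5.20 and 5.35 with radiation, and its change of 4.45 ± 0.14 (SE, adjusted p = 5.98e-29, limma), or 21.9-fold, was its largest in the 6 settings. TIPARP changed by 2.53 ± 0.09, CYP1B1 by 2.14 ± 0.08 and ALDH3A1 by 0.96 ± 0.08, all called. AHR lay at 0.12 ± 0.08 (adjusted p = 0.51, limma) and ARNT at -0.17 ± 0.09 (adjusted p = 0.34, limma).

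In cisplatin-treated cells at 24 h, 4 members were called higher and 0 lower, where 28.6% of all genes were called. CYP1A1 stood at 9.32, 9.47 and 9.35 with cisplatin and smoke extract, against 5.45, 5.14 and 4.98 with cisplatin, a change of 4.19 ± 0.14. TIPARP stood at 10.00, 9.84 and 10.02 with cisplatin and smoke extract, against 7.79, 7.80 and 7.94 with cisplatin, and its change of 2.11 ± 0.09 was its smallest in the 6 settings. CYP1B1 changed by 1.65 ± 0.08 and ALDH3A1 by 1.00 ± 0.08, while AHR lay at 0.04 ± 0.08 and ARNT at 0.02 ± 0.09. CYP1A2 stood at 6.52, 6.42 and 6.58 with cisplatin and smoke extract, against 6.33, 6.17 and 6.32 with cisplatin, without overlap but not called (change 0.24, adjusted p = 0.22, limma). The silent-family mean was also higher in the smoke extract group, at 5.05 with cisplatin and smoke extract and 4.80 with cisplatin. Over 14 alternatives, a fit with that mean as a covariate among them, the CYP1A2 change ran from -0.09 to 0.28 and was never called. The part of the silent-family mean in this difference was not tested further.

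Whether a therapy altered the smoke extract effect was tested as a difference of differences. With radiation minus without therapy at 24 h, 1 of 7 members was called, where 2.57% of all genes were called. It was ARNT, whose smoke extract effect was -0.17 with radiation and 0.26 without therapy, a difference of -0.42 ± 0.12 (SE, adjusted p = 0.0473, limma). The groups behind it were not far apart: 9.45, 9.64 and 9.53 with radiation and smoke extract, against 9.80, 9.84 and 9.47 with radiation, which overlapped. The ARNT call was lost in 8 of 12 omissions of 1 array (untreated replicates 1 and 2, smoke extract 1 and 3, radiation 1 and 2, radiation with smoke extract 1 and 3, adjusted p from 0.00336 to 0.201), without the intensity trend (0.0629), in a fit restricted to the compared groups (0.195), with all rows tested (0.0624) and with the replicate block (0.0607). Without the 3rd irradiated array 2 members were called, AHR too. The corresponding difference of CYP1A1 was 0.54 (95% interval 0.15 to 0.93, adjusted p = 0.115, limma) and was called after quantile normalization, with adjusted p = 0.0331. AHR was called after quantile normalization too (-0.37, adjusted p = 0.0456, limma). CYP1B1 was called with the silent-family mean as a covariate (0.29, adjusted p = 0.0483, limma). In the main fit 4 of 7 members and 3085 of all genes had an unadjusted p under 0.05.

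With cisplatin minus without therapy at 24 h, 0 members were called by limma, where 0.152% of all genes were called. An unadjusted p under 0.05 (limma) was reached by 2 of 7 members (TIPARP and AHR) and by 4137 of all genes, so such p-values were not particular to the members. The difference of TIPARP was -0.49 (95% interval -0.75 to -0.22, adjusted p = 0.0711, limma) and that of AHR -0.42 (95% interval -0.64 to -0.19, adjusted p = 0.0711, limma). Both were called, with adjusted p = 0.016 and 0.0191, by limma when the 4 arrays standing farthest from their groups in the silent families (nicotine replicate 2 and radiation with smoke extract replicate 3 at 24 h, replicate 3 of cisplatin with and without smoke extract at 2 h) were left out, an alternative chosen after seeing the data. At 2 h, 0 members were called by limma with radiation or with cisplatin minus without therapy and 0 had an unadjusted p under 0.05, where 0% and 0% of all genes were called, 301 and 1270 genes having an unadjusted p under 0.05. The 95% interval of the CYP1A1 difference at 2 h was -0.61 to 0.17 with radiation and -0.26 to 0.52 with cisplatin.

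Between the times the targets parted. The smoke extract effect, averaged over the 3 therapies, differed between 24 h and 2 h for 4 of 7 members, where 9.12% of all genes were called. The effect at 24 h exceeded that at 2 h by 0.85 ± 0.11 for CYP1A1 (SE, adjusted p = 2.28e-07, limma), by 0.51 ± 0.06 for ALDH3A1 (adjusted p = 4.22e-08, limma) and by 0.40 ± 0.07 for AHR (adjusted p = 1.88e-05, limma). For TIPARP the later effect was smaller, with a difference of -0.35 ± 0.08 (adjusted p = 0.00109, limma). CYP1B1 had a difference of -0.06 (95% interval -0.19 to 0.07), and ARNT had 0.20 (95% interval 0.06 to 0.34, adjusted p = 0.071, limma). The ARNT difference was called in 6 of 45 alternatives, quantile normalization among them, with adjusted p from 0.0151 to 0.166 over all of them (limma). The 9 arrays with smoke extract at 24 h read 9.11 to 9.82 for CYP1A1, against 8.34 to 9.12 at 2 h, and 9.84 to 10.36 for TIPARP, against 10.02 to 10.65 at 2 h.

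Nicotine alone did not stand for smoke extract in these genes. The nicotine, smoke extract and untreated comparisons share arrays, so their values are given side by side and not correlated. Averaged over therapies, smoke extract against nicotine at 2 h called 4 members higher and 2 lower, where 10.9% of all genes were called: CYP1A1 by 3.39 ± 0.08, TIPARP by 2.76 ± 0.05, CYP1B1 by 2.01 ± 0.05 and ALDH3A1 by 0.46 ± 0.04 higher, with AHR at -0.18 ± 0.05 (adjusted p = 0.00595, limma) and ARNT at -0.21 ± 0.05 (adjusted p = 0.00199, limma). ARNT on the 9 smoke extract arrays ran from 8.71 to 8.97 and did not overlap the 9 nicotine arrays, while the arrays of AHR overlapped. At 24 h, 6 of 7 members were called higher than with nicotine and 0 lower, where 20.6% of all genes were called. The changes were 4.10 ± 0.08 for CYP1A1, 2.55 ± 0.05 for TIPARP, 1.90 ± 0.05 for CYP1B1, 1.18 ± 0.04 for ALDH3A1, 0.25 ± 0.05 for AHR and 0.18 ± 0.05 for ARNT.

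Against no pretreatment, nicotine at 2 h called 0 members by limma, with 0 at an unadjusted p under 0.05, where 0% of all genes were called and 300 had an unadjusted p under 0.05. The 95% interval of the nicotine change at 2 h was -0.21 to 0.10 for CYP1A1 and -0.10 to 0.12 for TIPARP. At 24 h, 1 member was called, where 5.21% of all genes were called. ALDH3A1 fell by 0.19 on the log2 scale, with an SE of 0.04 (adjusted p = 0.00837, limma), averaging 10.81 with nicotine and 11.00 without, and the 9 arrays of each side overlapped. In a fit restricted to the compared groups its adjusted p was 0.133 (limma). The 3 arrays of nicotine alone at 24 h were 10.83, 10.85 and 10.45, and without the 3rd of them 3 members were called, TIPARP and ARNT too, while without replicate 3 of radiation alone 2 were called, ARNT too. CYP1A1 in that group read 5.33, 5.87 and 4.84, the widest spread of any group (SD 0.51), and its 2nd array also stood 0.27 above its group's median in the silent families.

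**Figure D3:**
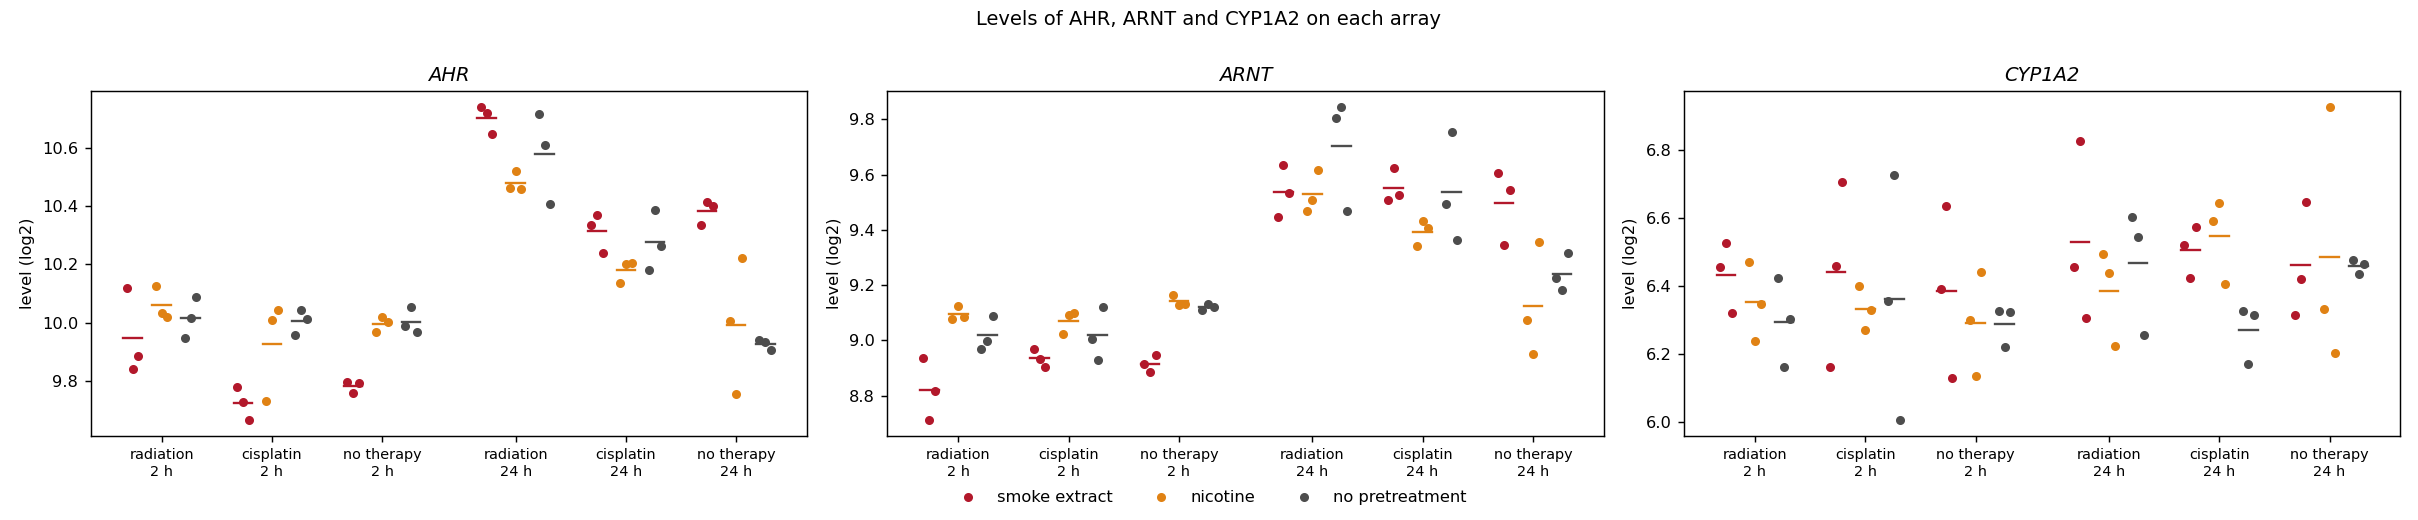
Log2 levels of AHR, ARNT and CYP1A2 on each of 54 arrays, by therapy and harvest time on the horizontal axis. Points are arrays, short lines are means of 3 arrays, and colours give smoke extract, nicotine or no pretreatment. AHR with radiation and smoke extract at 24 h, at 10.65 to 10.74, lies above AHR with smoke extract alone, while neighbouring groups of CYP1A2 in order of mean overlap.

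Radiation raised the receptor genes at the later time. Averaged over the 3 pretreatments at 24 h, 4 of 7 members were called higher with radiation and 0 lower, where 32.5% of all genes were called. AHR changed by 0.49 ± 0.05 (SE, adjusted p = 4.65e-12, limma), ALDH3A1 by 0.35 ± 0.04 (adjusted p = 1.12e-08, limma), ARNT by 0.30 ± 0.05 (adjusted p = 2.99e-06, limma) and TIPARP by 0.17 ± 0.05 (adjusted p = 0.0115, limma). AHR stood at 10.72, 10.61 and 10.41 with radiation alone, against 9.94, 9.94 and 9.91 in untreated cells, and at 10.74, 10.72 and 10.65 with radiation and smoke extract, against 10.33, 10.42 and 10.40 with smoke extract alone. Neither pair overlapped. ARNT stood at 9.80, 9.84 and 9.47 with radiation alone, against 9.23, 9.18 and 9.31 in untreated cells, while with smoke extract the irradiated arrays at 9.45, 9.64 and 9.53 overlapped those without therapy at 9.61, 9.35 and 9.54. Without replicate 2 of nicotine alone, 6 members were called. The added ones were CYP1A1, higher with radiation (0.23, adjusted p = 0.0054, limma), and CYP1B1, lower with it (-0.13, adjusted p = 0.0218, limma). The call of TIPARP was lost (adjusted p = 0.0531, limma) without the 4 arrays farthest in the silent families. There CYP1A1 was called higher (0.22) and CYP1B1 lower (-0.16). At 2 h, 0 members were called with radiation by limma, where 1.35% of all genes were called and 1496 had an unadjusted p under 0.05, among them 1 member, CYP1B1. CYP1B1 at 2 h had a change of -0.15 (95% interval -0.24 to -0.05, adjusted p = 0.128, limma), which was called after quantile normalization (0.0463) and in a fit restricted to the compared groups (0.0049).

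ALDH3A1 was highest where radiation and smoke extract met at 24 h, at 12.15, 12.13 and 12.29, against 11.88, 11.99 and 11.81 with smoke extract alone and 11.20, 11.08 and 11.42 with radiation alone. Its smoke extract effect with radiation minus without therapy was -0.05 (95% interval -0.27 to 0.17).

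Cisplatin gave less. At 24 h, averaged over pretreatments, 2 of 7 members were called higher with cisplatin and 0 lower, where 5.03% of all genes were called. ARNT changed by 0.21 ± 0.05 (SE, adjusted p = 0.00893, limma) and AHR by 0.16 ± 0.05 (adjusted p = 0.0365, limma). In a fit restricted to the compared groups neither was called (0.0713 and 0.119). AHR was lost in 12 of 18 omissions of 1 array (untreated replicates 1, 2 and 3, nicotine 1 and 2, smoke extract 1 and 2, cisplatin 2, cisplatin with nicotine 2 and 3, and cisplatin with smoke extract 1 and 2), with adjusted p from 0.00248 to 0.118. At 2 h, 0 members were called by limma, where 0.0109% of all genes were called and 452, with 0 members among them, had an unadjusted p under 0.05. The 95% interval of the cisplatin change at 2 h was -0.02 to 0.30 for CYP1A1.

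Harvest times were also compared without smoke extract, pooling untreated, nicotine, irradiated and cisplatin-treated cells. On the 18 arrays at 24 h against the 18 at 2 h, 3 of 7 members were called, 2 higher and 1 lower, a smaller share than the 59.7% of all genes that were called. ARNT changed by 0.34 ± 0.04 (SE, adjusted p = 2.15e-11, limma) and AHR by 0.24 ± 0.03 (adjusted p = 3.19e-08, limma) over the pooled groups. In untreated cells AHR averaged 9.93 ± 0.02 at 24 h and 10.00 ± 0.04 at 2 h (SD, n = 3 each), and with nicotine alone 9.99 ± 0.23 at 24 h and 10.00 ± 0.03 at 2 h. With radiation alone it averaged 10.58 ± 0.16 at 24 h and 10.02 ± 0.07 at 2 h, and with cisplatin alone 10.28 ± 0.10 at 24 h and 10.00 ± 0.04 at 2 h. The higher pooled level of AHR at 24 h was thus seen in the irradiated and cisplatin-treated cells and not in untreated cells or with nicotine alone. ARNT averaged 9.24 ± 0.07 at 24 h and 9.12 ± 0.01 at 2 h in untreated cells. With nicotine alone ARNT averaged 9.13 ± 0.21 and 9.14 ± 0.02 at those times. With radiation alone the ARNT means were 9.71 ± 0.21 and 9.02 ± 0.06, and with cisplatin alone 9.54 ± 0.20 and 9.02 ± 0.10. These differences within 1 treatment were not tested separately. ALDH3A1 had a pooled change of 0.07 (adjusted p = 0.0531, limma) that was called in 7 of 36 omissions of 1 array, with quantile normalization (0.14, adjusted p = 7.09e-05), with the silent-family covariate (0.0192) and among genes above the median level (0.0435). CYP1B1 fell by 0.08 on the log2 scale (adjusted p = 0.0361, limma), a call lost in 14 of 36 omissions of 1 array, with quantile normalization (0.989) and with the silent-family mean as a covariate (0.822). The silent-family mean itself ran from 4.80 to 5.02 over the 6 groups at 24 h, against 4.76 to 4.87 over the 6 groups at 2 h, and its part in these differences was not tested beyond that covariate. CYP1A1 lay at 0.03 (95% interval -0.09 to 0.14) and TIPARP at 0.04 (95% interval -0.04 to 0.12). TIPARP was called higher with the silent-family mean as a covariate (0.098, adjusted p = 0.035, limma).

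Over the 18 groups, ordered by mean, the 6 smoke extract groups came first for CYP1A1, CYP1B1, TIPARP and ALDH3A1. For CYP1A1 the order was radiation with smoke extract at 24 h (9.75 ± 0.09, SD, n = 3), cisplatin with it (9.38 ± 0.08) and smoke extract alone (9.23 ± 0.11) at 24 h, then cisplatin with it (8.95 ± 0.16), smoke extract alone (8.61 ± 0.16) and radiation with it (8.38 ± 0.04) at 2 h. Neighbours did not overlap except the 3 in the middle, cisplatin with smoke extract and smoke extract alone at 24 h and cisplatin with smoke extract at 2 h. The 12 groups without smoke extract lay at 5.19 to 5.44 with no separated neighbours. For CYP1B1 no neighbours among the 6 smoke extract groups (11.99 to 12.27) or among the 12 others (10.00 to 10.38) were separated. For TIPARP the 6 smoke extract groups ran from 9.95 with cisplatin at 24 h, separated from its neighbour, to 10.52 with radiation at 2 h. AHR ranked highest with radiation at 24 h (10.70 with smoke extract, 10.58 alone, 10.48 with nicotine, the first 2 pairs overlapping) and lowest with cisplatin and smoke extract at 2 h (9.73 ± 0.06). ARNT was highest with radiation alone at 24 h (9.71 ± 0.21) and lowest with radiation and smoke extract at 2 h (8.82 ± 0.11). The 18 group means of CYP1A2 spanned 6.27 to 6.55, with no separated neighbours.

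Across the 18 group means, TIPARP and CYP1B1 correlated at r = 0.99, CYP1B1 and CYP1A1 at 0.976, TIPARP and CYP1A1 at 0.973, and ALDH3A1 and CYP1A1 at 0.881. AHR and ARNT correlated at 0.893, whereas AHR and CYP1A1 gave 0.135. These values describe points that share arrays and treatments and mostly reflect 6 groups against 12.

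Outside the pathway genes, the 10 genes whose group means tracked those of CYP1A1 most closely over the 18 groups had r from 0.962 to 0.988. None had overlapping arrays with and without smoke extract. Their choice by likeness to CYP1A1 largely brings this about, so the values below are descriptions. SECTM1, a secreted and transmembrane protein, led (r = 0.988), at 10.02 to 10.47 with smoke extract and 7.62 to 8.37 without. It was followed by IL1A, a cytokine (0.979), at 7.73 to 9.90 with smoke extract and 5.95 to 6.80 without, and by CEMIP2, a cell-surface hyaluronidase (0.979), at 9.24 to 9.78 with smoke extract and 7.98 to 8.56 without. The others were ITPR1, an endoplasmic reticulum calcium channel, MEGF6, LGR5, a receptor for R-spondins, SLC35E4, HCAR3, FECH, which inserts iron into haem, and TESC. Their log2 changes with smoke extract alone were 0.53 to 1.90 at 2 h and 0.54 to 2.65 at 24 h. The means of LGR5 (6.61) and HCAR3 (5.83) with smoke extract stayed under the 95th percentile of the silent families. Without smoke extract, the means of IL1A (6.39), SLC35E4 (6.59), LGR5 (5.21) and HCAR3 (4.78) lay under it, so the sizes of their changes are uncertain.

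**Figure D4:**
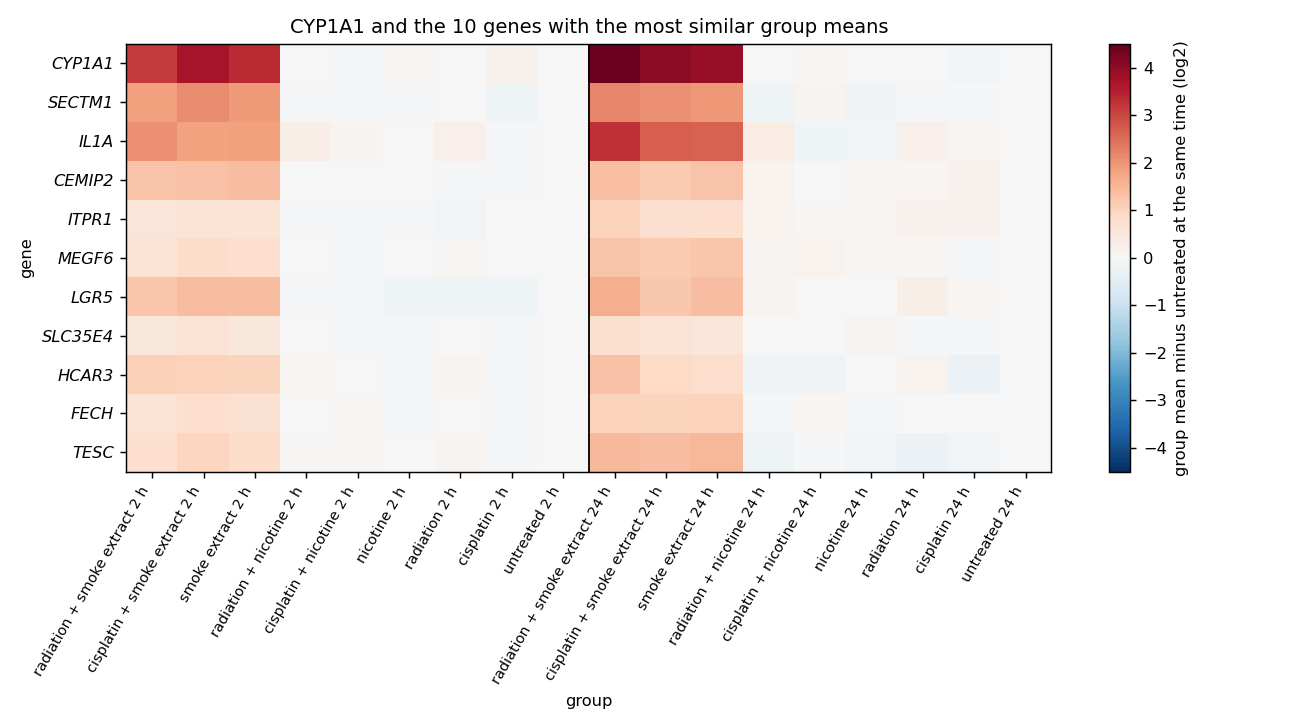
Group mean minus the untreated mean at the same time (log2, colour scale) for CYP1A1 and the 10 genes with the most similar 18 group means, with groups at 2 h left of the line and at 24 h right of it. Colour stands out in the 6 smoke extract groups, and CYP1A1 has the deepest colour, 4.43 above untreated cells in the radiation and smoke extract group at 24 h.

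Chaperones, partners and cofactors of AHR, 24 measured of 26 listed, were compared between cells given smoke extract alone and untreated cells. At 2 h, 1 was called higher, 1 lower and 22 not called, where 3.77% of all genes were called, with a median change of -0.11 against -0.02 over all genes. SIM2, a bHLH-PAS factor that can pair with ARNT, stood at 8.02, 8.12 and 8.15 with smoke extract, against 7.69, 7.73 and 7.77 in untreated cells (change 0.37, adjusted p = 0.00194, limma). NCOA2, a coactivator, stood at 7.45, 7.64 and 7.69 with smoke extract, against 7.89, 7.95 and 7.99 in untreated cells (change -0.35, adjusted p = 0.00496, limma). At 24 h, 8 were called higher, 0 lower and 16 not, where 16.1% of all genes were called, with a median of 0.10 against 0.01. SIM2 changed by 0.62, NCOA1, another coactivator, by 0.40, the acetyltransferase EP300 by 0.37 and PARP1 by 0.31. SIM2 was called higher in all 6 therapy and time settings. In irradiated cells at 24 h, 5 of the 24 genes were called lower and 1 higher. Of all 18417 genes 1047 were called lower there and 469 higher. In cisplatin-treated cells at 24 h, 5 of the 24 were also called lower and 1 higher. Of all genes 2592 were called lower there and 2683 higher, together 28.6%, against 8.23% in irradiated cells.

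Other genes reported as AHR targets, 26 measured of 30 listed, moved in both directions. This list, like the other lists, was chosen with earlier results of these data known, so its counts are descriptions. With smoke extract alone at 2 h, 7 were called higher, 3 lower and 16 not, against 3.77% of all genes called, with a median of 0.06 against -0.02 over all genes. STC2, a secreted glycoprotein, stood at 9.55, 9.73 and 9.87 with smoke extract, against 7.50, 7.67 and 7.80 in untreated cells (change 2.06, adjusted p = 2.72e-20, limma). The collagenase MMP1 changed by 1.22 and the repressor HES1 by 1.20, while PTGS2, cyclooxygenase 2, fell by 0.88 on the log2 scale, all with separate arrays. PTGS2 lay under the 95th percentile of the silent families on all 6 arrays. At 24 h, 8 were called higher, 1 lower and 17 not, against 16.1% of all genes called, with a median of 0.07 against 0.01. MMP1 stood at 10.21, 10.33 and 10.55 with smoke extract, against 6.11, 6.24 and 6.42 in untreated cells, a level within the range of the silent families, so that its change of 4.10 (adjusted p = 1.93e-28, limma) is at best a lower bound. STC2 changed by 1.72, IL1B by 1.26 and the cell cycle inhibitor CDKN1B by 0.85. IL1B also lay under the 95th percentile of the silent families on all 6 arrays, so the sizes of its change and that of PTGS2 are uncertain. NQO1, a quinone reductase shared with the NRF2 pathway, changed by 0.15 at 24 h (adjusted p = 0.0087, limma).

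Other genes of xenobiotic and aldehyde metabolism, 32 measured of 35 listed, were called at shares near those of all genes. At 2 h, 1 was called higher, 0 lower and 31 not, against 3.77% of all genes, with a median of -0.03 against -0.02 over all genes. It was RXRA, a retinoid X receptor, at 9.49, 9.57 and 9.68 with smoke extract alone, against 8.81, 8.86 and 8.93 in untreated cells (change 0.72, adjusted p = 7.94e-07, limma). At 24 h, 4 were called higher, 3 lower and 25 not, against 16.1% of all genes, with a median of 0.05 against 0.01. RXRA changed by 0.77. The 3 called lower were ALDH1A1, an aldehyde dehydrogenase that makes retinoic acid, at 8.56, 8.79 and 8.85 with smoke extract, against 9.40, 9.48 and 9.56 in untreated cells, CYB5A, an electron donor to cytochromes P450, with a change of -0.57, and GSTP1, a glutathione transferase, with a change of -0.41. ALDH1A1 thus fell by 0.75 on the log2 scale at the time when ALDH3A1 rose by 1.01.

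**Figure D5:**
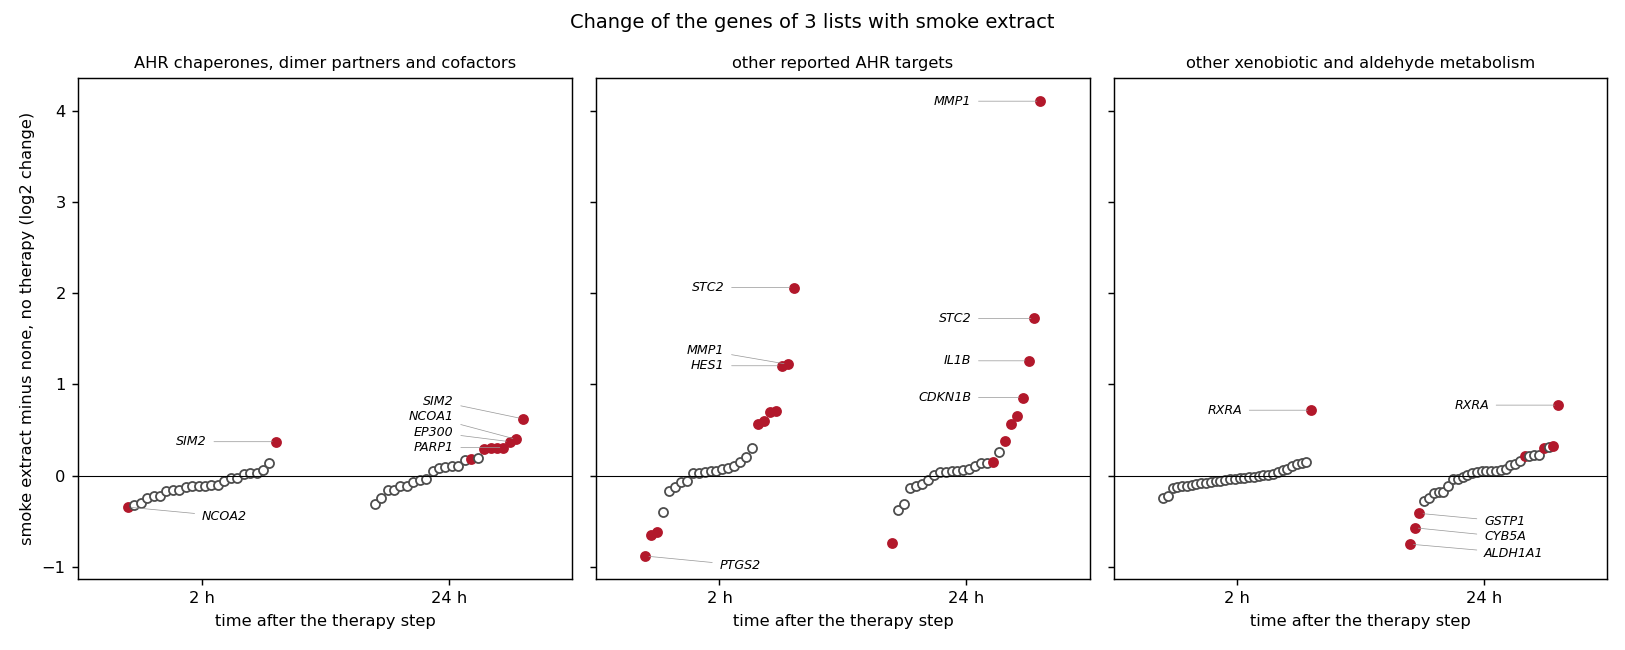
Log2 change with smoke extract alone against untreated cells at 2 h and 24 h for the measured genes of 3 lists, each point 1 gene, sorted by change within a time. Filled points passed the adjusted p threshold of 0.05, and the labelled ones are the up to 4 called genes with the largest absolute change per list and time. MMP1 at 24 h, with 4.10, stands above all other genes of the lists.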

How the data were processed

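RNA from 54 NCI-H460 cultures was hybridised to 1-colour Affymetrix arrays, and the authors deposited 1 value table of log2 expression values with 33297 rows. Affymetrix Power Tools 1.15.0 is named, per the submitters' processing notes, while for summarization, normalization and genome build the step is not given in the sources used here. Base 2 of the logarithm was inferred from the range of the deposited values (0.89 to 13.81). Array medians ran from 6.43 to 6.63, and the number of arrays limits the precision.

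Of the rows, 19460 carried 1 symbol in the platform annotation, 1754 several and 12083 none. The row with the highest mean was kept per symbol, which left 18417 genes. Means of 18 groups were fitted over all 54 arrays (limma 3.58.1 in R 4.3.3, trended eBayes, 36 residual degrees of freedom) and 20 two-sided comparisons were made, each adjusted by Benjamini-Hochberg over 18417 genes and called under 0.05. Arrays were not assigned to culture plates in the sources used here, so plates could not be tested as a batch.

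Same-numbered replicates were checked for pairing through the correlation of their deviations from the group means in the 6 comparisons of smoke extract with no pretreatment. They passed 0.1 in 3 of 18 pairs, all in irradiated cells at 24 h (0.325, 0.373 and 0.675). The main fit held no pairing, so its p-values there leave this correlation out. A fit with replicate terms for all groups was an alternative.

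The 8 genes, the 3 gene lists and the tests were chosen with earlier results of these data known. Genes named were the 8 members, up to 4 called genes with the largest absolute change per list with smoke extract alone at each time, and the 10 genes most correlated with CYP1A1. A few others were named after their values were seen (NQO1). Figures were drawn with matplotlib 3.10.9. Alternatives were other scalings, filters, fits, a replicate block and leaving out arrays.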

Additional observations from a re-analysis of the deposited data

Results flagged for a closer look

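The smoke extract effect, averaged over therapies, differed between 24 h and 2 h by a test of the difference itself for 4 genes. The difference was 0.85 for CYP1A1, 0.51 for ALDH3A1 and 0.40 for AHR, each larger at 24 h, and -0.35 for TIPARP. The effect on ARNT at 24 h differed between irradiated cells and cells without therapy by -0.42 (adjusted p = 0.0473, limma). That call was lost in 12 of 21 alternatives.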

How the results depend on the processing

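Of 3320 member changes recomputed under the alternatives, 3220 kept their side of the threshold, 57 lost a call, 43 gained one and 0 called changes turned sign. All 354 recomputed smoke extract changes of CYP1A1, CYP1B1, TIPARP and ALDH3A1 stayed called, with a highest adjusted p of 0.0101 (limma). No other scaling moved the median of all genes by more than 0.0566.

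The number of members called moved as follows. For cisplatin at 24 h, 2 were called, against 1 without the intensity trend, 0 in a fit restricted to the compared groups and 1 without the 4 arrays farthest in the silent families. For radiation minus no therapy in the smoke extract effect at 24 h, 1 was called, against 0 without the trend, 3 with quantile normalization, 2 with the silent-family covariate, 0 in the restricted fit and 0 with all rows. For radiation at 2 h, 0 were called, against 1 with quantile normalization and 1 in the restricted fit. For nicotine at 24 h, 1 was called, against 0 in the restricted fit and 2 among genes above the median level, a filter that kept 5 of the 7 members. For cisplatin minus no therapy at 24 h, 0 were called, against 2 without the 4 far arrays. The causes were not tested.

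Without 1 array, members called ranged from 1 to 3 for nicotine, from 4 to 6 for radiation, from 1 to 2 for cisplatin and from 0 to 2 for the radiation difference, all at 24 h, and from 2 to 5 for 24 h against 2 h without smoke extract. CYP1B1 lost that last call without untreated 1, nicotine 3, radiation 2, radiation with nicotine 3, cisplatin 3 or cisplatin with nicotine 2 or 3 at 2 h, and without untreated 1, nicotine 2, radiation 2, radiation with nicotine 2 or 3, cisplatin 2 or cisplatin with nicotine 1 at 24 h.

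With the replicate block, the radiation difference at 24 h called 0 members (ARNT -0.42, adjusted p = 0.0607, limma). The block changed no other member's call, also in irradiated cells at 24 h, where deviations of same-numbered replicates correlated.

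Counts of all genes called moved by over 1.5 times, with the ranges over all alternatives. With smoke extract they were 695 (450 to 1278), 490 (363 to 762) and 1005 (465 to 1439) at 2 h without therapy, with radiation and with cisplatin, and 2959 (1903 to 4196), 1516 (651 to 2209) and 5275 (1338 to 7330) at 24 h in that order. They were 959 (32 to 2145) for nicotine, 927 (439 to 1768) for cisplatin, 474 (152 to 1498) for the radiation difference and 28 (2 to 1328) for the cisplatin difference at 24 h. They were 249 (198 to 572) for radiation and 2 (2 to 5) for cisplatin at 2 h. For smoke extract against nicotine at 24 h they were 3795 (2460 to 4832), for the smoke extract effect at 24 h minus 2 h 1679 (1315 to 4007), and for 24 h against 2 h without smoke extract 11000 (6671 to 17314). Signals near background limit CYP1A2, PTGS2, IL1B, LGR5 and HCAR3 in the groups compared. They also limit CYP1A1, MMP1 (at 24 h), IL1A and SLC35E4 without smoke extract.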
